A study of Mus musculus with 12 samples.

Results

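NF-kB is the family of transcription factors through which macrophages switch on inflammatory genes. In microglia sorted from the mouse brain, 10 genes were followed here, its subunits and genes of inhibition and feedback. They were its 5 subunits (Nfkb1, Nfkb2, Rel, Rela and Relb), 3 inhibitors of the IkB type (Nfkbia, Nfkbie and Nfkbiz) and 2 further brakes on inflammatory signalling (Tnfaip3 and Socs3). A gene was represented by the row of the gene-level array table annotated to its symbol alone. Of the 10 genes, 8 had such a row among 16755 transcript clusters, and Socs3 had 2, of which the one with the higher mean was used. Nfkb1 and Relb had none and were represented by the median of their probesets at the exon level, where 22184 genes had such a value. No filter on low values was applied, so all 10 genes were tested.

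The study compared Lrrc33-/- mice (3 samples, called KO-labelled) with Lrrc33+/+ mice (3 samples, called WT), all aged 3 weeks. Lrrc33 is the older name of Nrros, a membrane protein of myeloid cells that holds latent TGF-beta1. Cells with low CD45 that carried CD11b and CD39 and lacked Ter119 were sorted by flow cytometry, and their RNA was hybridised to Affymetrix mouse exon arrays. The series holds 12 labelled samples, which were taken as 6 arrays summarised at 2 levels (gene and exon). They are labelled as biological replicates, the labels do not give the number of mice in each, and no treatment is named. Values are on the log2 scale after RMA (background correction, normalization and summary of probes), which makes differences of dim genes too small, and the number of arrays limits the precision.

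In resting cells NF-kB dimers are held in the cytoplasm by IkB proteins. Signals from Toll-like, IL-1 and TNF receptors activate the IkB kinase (IKK), which marks IkB proteins for destruction and frees the dimers to enter the nucleus. Among the genes they switch on are their own inhibitors, such as Nfkbia and Tnfaip3, so that the RNA of these brakes is known to follow NF-kB activity within a short time. Socs3 is switched on mainly by STAT3 and in turn blocks signalling through the receptor chain gp130 (Il6st) and the G-CSF receptor (Csf3r).

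The promoters of 5 genes are shown, each with a match to a motif of these feedback loops as described next. Of these genes 4 passed the test below and 1, Nfkb2, did not. Nfkbie passed as well, but its promoter held no match to either motif and is not shown. The sequences are the 250 bases before the start of the gene in RefSeq (build GRCm38.p6), written 5′ to 3′ on the strand of the gene. Capitals mark matches on either strand to a kB-type motif (GGG, any 2 bases, TT, any base, CC) or to a STAT-type motif (TTCNNNGAA), patterns taken from textbook knowledge with no test attached. Nfkbia lies at chr12:55492648-55492897 (minus strand), Tnfaip3 at chr10:19015411-19015660 (minus), Rel at chr11:23770970-23771219 (minus), Nfkb2 at chr19:46304487-46304736 (plus) and Socs3 at chr11:117969367-117969616 (minus).
Nfkbia: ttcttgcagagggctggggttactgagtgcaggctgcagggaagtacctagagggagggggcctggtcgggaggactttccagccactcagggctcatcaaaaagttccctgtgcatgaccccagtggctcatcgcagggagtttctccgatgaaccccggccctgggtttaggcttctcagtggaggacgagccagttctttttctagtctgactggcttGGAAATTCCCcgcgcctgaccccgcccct
Tnfaip3: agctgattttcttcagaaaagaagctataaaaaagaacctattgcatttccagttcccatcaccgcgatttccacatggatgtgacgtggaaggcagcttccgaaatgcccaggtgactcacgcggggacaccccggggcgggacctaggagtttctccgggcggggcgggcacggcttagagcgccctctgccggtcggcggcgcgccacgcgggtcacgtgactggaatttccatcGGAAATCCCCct
Rel: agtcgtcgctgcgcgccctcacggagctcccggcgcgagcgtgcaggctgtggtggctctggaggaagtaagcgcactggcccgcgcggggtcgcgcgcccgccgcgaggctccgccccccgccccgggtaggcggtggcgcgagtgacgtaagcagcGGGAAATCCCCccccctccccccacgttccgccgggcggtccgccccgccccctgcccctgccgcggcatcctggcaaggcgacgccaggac
Nfkb2: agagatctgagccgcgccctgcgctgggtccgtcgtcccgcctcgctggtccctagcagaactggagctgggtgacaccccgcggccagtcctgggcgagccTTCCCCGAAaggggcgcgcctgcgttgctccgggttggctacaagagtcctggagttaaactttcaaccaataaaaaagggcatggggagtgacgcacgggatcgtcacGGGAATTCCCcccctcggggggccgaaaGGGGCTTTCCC
Socs3: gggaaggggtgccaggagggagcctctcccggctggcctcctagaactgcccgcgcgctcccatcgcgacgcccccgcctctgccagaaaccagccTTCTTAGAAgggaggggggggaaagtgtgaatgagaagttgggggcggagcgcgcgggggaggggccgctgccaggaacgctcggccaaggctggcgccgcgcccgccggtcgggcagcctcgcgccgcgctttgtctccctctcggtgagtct
Promoters of 7 of the 10 genes, with 10 windows in all, were in the table, and Nfkb1, Relb and Nfkbiz were not matched. Nfkbia held 1 kB-type match, GGAAATTCCC, which began 29 bases before the start. Tnfaip3 held 1, GGAAATCCCC, beginning 12 bases before the start, and its other annotated start held 0. Rel held 2 that overlap each other. Nfkb2 held 3 at the start shown, of which 2 overlap, with 1 STAT-type match, TTCCCCGAA, and it held GGGACTTTCC at another of its 3 starts. Rela, Nfkbie and Socs3 held 0, and Socs3 held 1 STAT-type match, TTCTTAGAA, beginning 154 bases before the start. Of all 32851 promoter windows of this length, 4.11% held a kB-type and 7.02% a STAT-type match. A match is a stretch of letters, not a measured binding site, and a window without one says nothing about more distant sequence.

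Before the results, 3 properties of the arrays bear on them. Nrros RNA, the target of the knockout, stood at 9.86, 9.89 and 9.83 (log2) in the KO-labelled samples, against 9.94, 9.88 and 9.60 in WT, overlapping ranges that do not check the labels. The difference was 0.05 (SE 0.09; limma, Benjamini-Hochberg adjusted p = 0.759), and -0.053 without WT replicate 3. No label describes the structure of the allele, so the directions below rest on the genotype labels. WT replicate 3 stood apart in sex-linked RNA, with Xist at 7.96 (exon level) against 12.24 to 12.46 on the other 5 arrays and the Y-linked Eif2s3y at 7.72 against 3.06 to 3.15. The microglial label was set against 9 measured microglial markers. In WT the group means of all 9 stood above the median of all clusters (6.73). In the KO-labelled samples Sall1, a transcription factor gene that marks microglia, was below it, at 5.55, 5.46 and 5.48 against 11.29, 11.34 and 11.22 in WT, and the means of the other 8 were above it. All 9 were lower in the KO-labelled samples, where their summed unlogged signal was 23067 to 23505, against 52388 to 53772 in WT. Of 9 measured markers of border-associated macrophages, 8 were higher, with sums of 30558 to 31399 in KO-labelled samples and 7302 to 8328 in WT. The part of these cell type markers in the results below was not tested.

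Of the 5 inhibitors and feedback genes, 4 were called lower in the KO-labelled samples and Nfkbiz did not pass the test. Nfkbiz is counted among them by its IkB type, although it acts differently, as described below. Socs3, Tnfaip3, Nfkbia and Nfkbie were lower by 5.60-fold, 2.56-fold, 2.22-fold and 1.71-fold. Of the 5 subunits 1 was called lower, Rel, by 1.46-fold, and whether subunits and inhibitors differ from each other was not tested. All 10 differences were below 0, and 5 genes were called lower by limma (Benjamini-Hochberg adjusted p under 0.05). For comparison, 14% of all gene-level clusters were called lower, 14.4% were called higher and 28.4% were called in either direction, and 7.53% of exon-level gene values were called lower. The median difference was -0.43 (log2) over the 10 genes, -1.15 over the inhibitors and feedback genes and -0.31 over the subunits, beside -0.02 over all clusters. In such sorted bulk samples, fewer cells that express a gene and less of its RNA per cell cannot be told apart.

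**Figure D1:**
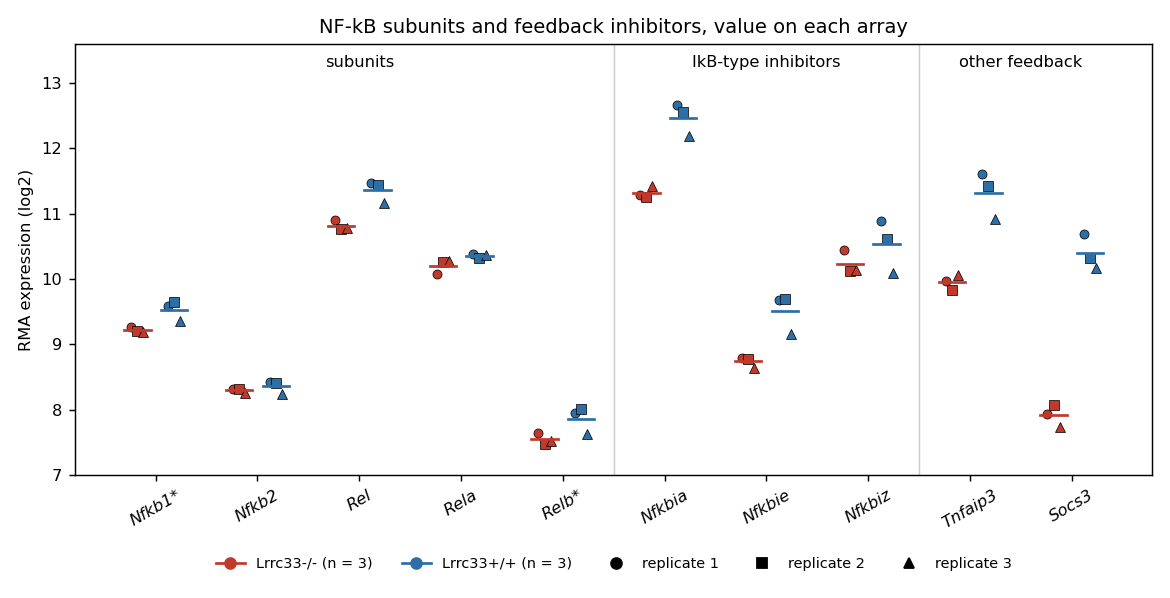
RMA expression (log2, vertical axis) of the 10 genes on each of the 3 KO-labelled arrays (red, left of each pair) and the 3 WT arrays (blue, right). Symbols mark the replicate number, horizontal lines the group means, and asterisks the 2 genes taken from the exon level. Socs3, Tnfaip3, Nfkbia, Nfkbie and Rel show red points below all blue ones, as do Rela and Nfkb1, which did not pass the threshold. The blue triangle of WT replicate 3 is the lowest WT value for 9 of the 10 genes.

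Rel, the c-Rel subunit of lymphoid and myeloid cells, was the subunit that passed the threshold. Its values were 10.90, 10.77 and 10.78 (log2) in the KO-labelled samples, against 11.47, 11.44 and 11.17 in WT. Every KO-labelled value lay below every WT value. The difference was -0.54 (SE 0.09; limma, Benjamini-Hochberg adjusted p = 0.0040).

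Rela encodes the most widely used activating subunit. It stood at 10.08, 10.26 and 10.28 in the KO-labelled samples and at 10.39, 10.32 and 10.37 in WT. The groups did not overlap, but the difference of -0.16 (95% interval -0.32 to 0.0061) missed the threshold (limma, Benjamini-Hochberg adjusted p = 0.147). Without KO-labelled replicate 1 it was -0.092. Nfkb1 makes the DNA-binding partner of Rela from a longer precursor. At the exon level it had values of 9.26, 9.21 and 9.19 in the KO-labelled samples, against 9.59, 9.64 and 9.36 in WT, again without overlap. Its difference was -0.31 (95% interval -0.56 to -0.062, not adjusted for the number of genes), and limma's Benjamini-Hochberg adjusted p was 0.0986.

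Nfkb2 and Relb form the dimer of the non-canonical pathway, which is driven by receptors such as CD40 and the lymphotoxin receptor. Nfkb2 had 8.31, 8.31 and 8.26 in the KO-labelled samples and 8.42, 8.40 and 8.24 in WT, overlapping ranges with a difference of -0.06 (95% interval -0.21 to 0.095; limma, Benjamini-Hochberg adjusted p = 0.578). That difference was -0.026 and -0.035 without WT replicates 1 and 2 and -0.118 without WT replicate 3, and it was -0.0063 with exon-level gene values. Relb had 7.65, 7.47 and 7.52 in the KO-labelled samples and 7.94, 8.01 and 7.63 in WT. These ranges overlapped only through WT replicate 3, and the difference of -0.32 (95% interval -0.61 to -0.026, not adjusted) had a limma Benjamini-Hochberg adjusted p of 0.145. A difference as large as that of Nfkbia (-1.15) lies outside the intervals of Nfkb1, Nfkb2, Rela and Relb. It also lies outside those of Rel (-0.76 to -0.33), Nfkbie (-1.12 to -0.43) and Nfkbiz (-0.76 to 0.18). It therefore does not set the subunits apart from the inhibitors.

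Nfkbia encodes IkB-alpha, the inhibitor that is destroyed first after a stimulus and is made again as an NF-kB target. It had 11.28, 11.26 and 11.42 (log2) in the KO-labelled samples, against 12.67, 12.55 and 12.19 in WT. The lowest WT value, that of replicate 3, was still above the highest KO-labelled one. The difference was -1.15 (SE 0.12; limma, Benjamini-Hochberg adjusted p = 0.000488), which left 45.1% of the WT level.

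Nfkbie encodes IkB-epsilon, a slower inhibitor of the same kind. Its values were 8.80, 8.78 and 8.64 in the KO-labelled samples, against 9.68, 9.69 and 9.16 in WT. The groups were separate, with WT replicate 3 about midway between the other WT arrays and the KO-labelled ones. The difference was -0.77 (SE 0.15; limma, Benjamini-Hochberg adjusted p = 0.0070), or 58.6% of the WT level.

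Nfkbiz encodes IkB-zeta, a nuclear member that is induced by Toll-like receptor and IL-1 signals and promotes a subset of secondary response genes rather than holding NF-kB back in the cytoplasm. It had 10.44, 10.12 and 10.14 in the KO-labelled samples and 10.89, 10.61 and 10.09 in WT. WT replicate 3 lay below all 3 KO-labelled values, so the groups overlapped. The difference of -0.29 (95% interval -0.76 to 0.18) did not pass (limma, Benjamini-Hochberg adjusted p = 0.347). It was -0.51 with an adjusted p of 0.0362 without WT replicate 3, and -0.115 with an adjusted p of 0.716 without WT replicate 1.

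Tnfaip3 encodes an enzyme that removes and edits ubiquitin chains on signalling proteins and so ends IKK activation after TNF, IL-1 and Toll-like receptor signals. It had 9.97, 9.84 and 10.07 (log2) in the KO-labelled samples, against 11.62, 11.42 and 10.92 in WT. All KO-labelled values were below all WT values. The difference was -1.36 (SE 0.17; limma, Benjamini-Hochberg adjusted p = 0.0010), which left 39.0% of the WT level.

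Socs3, whose protein binds and blocks JAK kinases at cytokine receptors, showed the largest difference of the 10 genes. Its values were 7.93, 8.07 and 7.73 (log2) in the KO-labelled samples, against 10.70, 10.32 and 10.17 in WT. The gap between the groups was larger than the range within either. The mean was 7.91 ± 0.17 in KO-labelled samples and 10.40 ± 0.27 in WT (SD, n = 3 each), and the difference of -2.48 (SE 0.15; limma, Benjamini-Hochberg adjusted p = 2.73e-05) was the 62nd lowest of 16755 clusters. The other cluster annotated to Socs3 (6785317) had 4.98, 5.44 and 4.92 in KO-labelled samples and 7.10, 6.58 and 6.86 in WT. It was lower too (-1.73, SE 0.17; limma, Benjamini-Hochberg adjusted p = 0.00035).

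The exon level summarises these arrays again, so it adds no independent evidence, but it showed how evenly the probesets of each gene moved. The 10 genes had 182 probesets annotated to them alone, of which 36 were called lower and 0 higher by limma (at an unadjusted p under 0.05, 71 and 0), beside 4.75% of all 1236087 probesets called in either direction and 2.16% called lower. The count of 36 depends on the fit, and was 17 without WT replicate 2, 19 without WT replicate 1 or KO-labelled replicate 1, and 23 without KO-labelled replicate 2. In sign alone, 162 of the 182 probesets (89.0%) had a negative difference, against 50.1% of all probesets. The set of all probesets includes 907200 without a symbol, so its shares are not those of a like set. Probesets of the same gene are also not independent of each other. All 7 probesets of Nfkbia were called lower, with differences of -1.40 to -0.92. For Tnfaip3 it was 18 of 19, with differences of -1.96 to -0.51 over all 19. Of the 9 probesets of Nfkbie 1 was called, but in all 9 every KO-labelled value lay below every WT value, which held for 11.4% of all probesets. The same non-overlap was seen in 14 of 15 Rel probesets, none of which was called on its own (14 at an unadjusted p under 0.05), with differences of -1.21 to -0.0072. The 28 probesets of Nfkb2 split into 16 negative and 12 positive ones, with a median of -0.05.

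**Figure D2:**
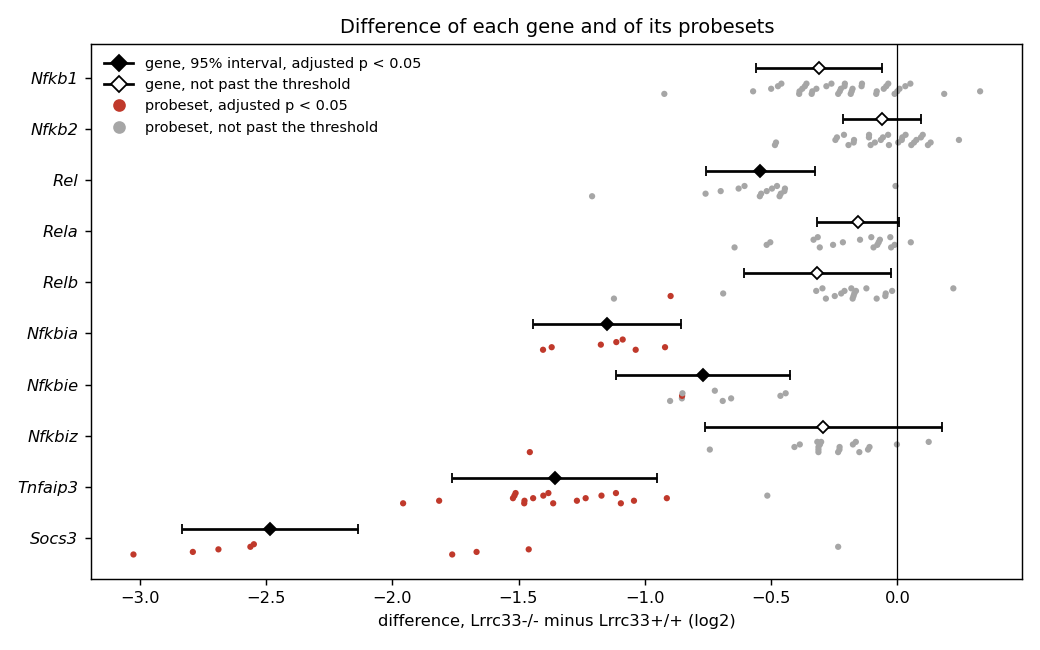
Differences (KO-labelled minus WT, log2, horizontal axis) of the 10 genes as diamonds with 95% intervals, filled where the gene passed the threshold, and of their probesets as points, red where a probeset passed. The probesets of Nfkbia and Tnfaip3 cluster around their gene, 1 Socs3 probeset stands near 0, and 1 Nfkbiz probeset stands at -1.46, far from the rest.

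The probesets of a gene did not always differ between the groups by the same amount. RMA makes differences of dim probesets too small, and the part of this in the calls below was not tested. Differential exon usage, tested with limma's diffSplice, was called in 31.5% of all genes tested. It was called in 4 of the 10, a count near that share. The 4 were Socs3 (diffSplice F test, Benjamini-Hochberg adjusted p = 2.01e-11), Relb (adjusted p = 0.0015), Rel (adjusted p = 0.0184) and Nfkb1 (adjusted p = 0.0195). In Socs3, 8 of 9 probesets were lower, by 1.46 to 3.02 on the log2 scale, while probeset 5014820 had 7.34, 7.23 and 6.92 in KO-labelled samples and 7.61, 7.12 and 7.46 in WT. In Relb, 3 of 20 probesets stood apart at -1.12, -0.90 and -0.69, of which the one at -0.90 was called, and the median over all 20 was -0.18. Nfkbiz was not called (adjusted p = 0.248), but its probeset 5386785 had 8.10, 8.36 and 8.11 in KO-labelled samples against 10.09, 9.82 and 9.02 in WT, a difference of -1.46 (limma, Benjamini-Hochberg adjusted p = 0.0284) beside a median of -0.27 over its 20 probesets. The probesets singled out here were chosen after their values were seen, and which parts of the transcripts they cover was not analysed here.

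The 10 genes varied more between WT arrays than between KO-labelled arrays. The median SD was 0.09 (log2) in KO-labelled samples and 0.22 in WT, and the WT SD was the larger for 9 of the 10. Over all clusters the medians were 0.09 and 0.07, and the WT SD was the larger for 43.8%. WT replicate 3 was the lowest WT array for 9 of the 10 genes, Rela being the exception, although it was the lowest for 30.5% of all clusters. Its median deviation from the WT mean was -0.23 over the 10 genes, against 0.14 and 0.08 for WT replicates 1 and 2 and -0.03 to 0.03 for the KO-labelled arrays. With all arrays, 7 of the 10 genes had every KO-labelled value below every WT value, where 21.9% of clusters and 16.9% of exon-level gene values did. None had every value above, where 20.4% of clusters did. Without WT replicate 3, an array singled out after its values were seen, all 10 genes had every KO-labelled value below every WT value, where 25.3% of clusters and 22.1% of exon-level gene values did.

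**Figure D3:**
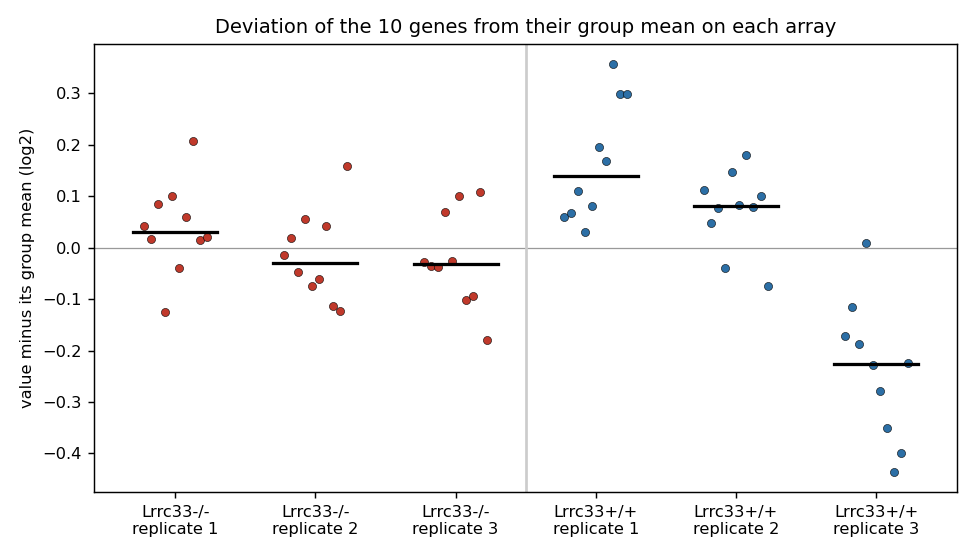
Deviation of each of the 10 genes from the mean of its own group (log2, vertical axis) on the 3 KO-labelled arrays (red) and the 3 WT arrays (blue), with a black line at the median of the 10 genes on each array. WT replicate 3 has a median of -0.23, while the KO-labelled arrays stay within -0.03 to 0.03.

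Other measures of WT replicate 3 are given beside this pattern, and their part in it was not tested. This was the array with the Y-linked RNA. Among 13 measured genes of isolation stress and immediate early response, which include Fos, Jun and Atf3, it was the lowest WT array in 6. Its median deviation over them was -0.05, beside -0.06 for KO-labelled replicate 3 and 0.05 for WT replicate 1. WT replicate 3 was the lowest WT array in 24 of 35 measured NF-kB target genes outside the 10, beside 30.5% of all clusters. In the lists described below it was the lowest in 13 of 24 other inhibitors and 11 of 23 genes of the IKK route. The counts were 12 of 26 for the SOCS family and STAT3 route and 9 of 24 for receptors and ligands. Among markers they were 2 of 9 microglial, 1 of 9 border-associated macrophage and 1 of 7 monocyte. They were 1 of 10 neutrophil, 0 of 8 lymphocyte and NK cell, and 4 of 9 neuron, astrocyte, oligodendrocyte and endothelium markers. Between the groups, the stress and immediate early genes were divided, with 4 higher, 4 lower and a median difference of 0.05, and their summed signal was 43459.7 to 45358 in KO-labelled samples and 42109.8 to 44522 in WT.

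The route that leads to NF-kB held more lower than higher genes. Of 23 measured kinases and adaptors of the IKK route (30 listed), 7 were lower (all clusters, 14%), 1 was higher (all clusters, 14.4%) and 15 did not pass, with a median difference of -0.04. Traf5, an adaptor of TNF receptor family members, differed by -0.73 (SE 0.06). Card9, the adaptor of fungal lectin receptors, differed by -0.66 (SE 0.08), Irak2, a kinase-like protein of Toll-like and IL-1 receptor signalling, by -0.56 (SE 0.10), and the protease and scaffold gene Malt1 by -0.48 (SE 0.05). Malt1 was at -0.31 and missed the threshold with exon-level gene values (limma, Benjamini-Hochberg adjusted p = 0.0691). The higher gene was Ikbkb, the main catalytic subunit of IKK (0.23), named after its values were seen. It missed the threshold without KO-labelled replicate 1 or 3 or WT replicate 2 or 3 (highest Benjamini-Hochberg adjusted p 0.0886), with the replicate block (adjusted p = 0.0671) and with exon-level gene values (0.097, adjusted p = 0.599). Without WT replicate 2 the count of lower genes was 4. Tab2, which links the kinase TAK1 to ubiquitin chains, was at 0.01, and Birc3, a ubiquitin ligase, at 0.18, and neither passed. Birc3 was at 0.078 without WT replicate 3 and 0.433 with exon-level gene values.

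Receptors and ligands that feed NF-kB moved in both directions. Of 24 measured (27 listed), 9 were higher (all clusters, 14.4%), 7 lower (all clusters, 14%) and 8 did not pass. The median difference was 0.0057, and it was -0.052 without WT replicate 1 and 0.127 with exon-level gene values, where 5 were higher and 4 lower. The cytokine gene Il1a was at 9.50, 9.09 and 9.08 (log2) in KO-labelled samples, against 12.01, 12.04 and 11.27 in WT, and differed by -2.55 (SE 0.22). Tnf was at 9.25, 9.22 and 8.92 in KO-labelled samples, against 11.81, 11.47 and 10.50 in WT, and differed by -2.13 (SE 0.31). Il1b moved the other way, with 10.22, 10.13 and 10.58 in KO-labelled samples against 9.53, 9.16 and 8.37 in WT (1.29, SE 0.28; limma, Benjamini-Hochberg adjusted p = 0.0131). In all 3 cytokine genes WT replicate 3 was the lowest array of its group, and the groups did not overlap. Tnfrsf12a, the receptor for the ligand TWEAK, differed by -0.80 (SE 0.11). Tlr2, a receptor for bacterial lipoproteins, and Tnfsf11, the ligand RANKL, did not pass, at -0.18 and -0.0045, and Tlr2 was at -0.114 without KO-labelled replicate 3.

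Other inhibitors of NF-kB signalling were divided as well. Of 24 measured (25 listed), 8 were lower (all clusters, 14%), 5 higher (all clusters, 14.4%) and 11 did not pass, with a median of -0.15. Nfkbid, a nuclear IkB relative, had 9.03, 9.26 and 9.13 in KO-labelled samples, against 10.72, 10.42 and 9.91 in WT, and differed by -1.21 (SE 0.19). Zc3h12a, a ribonuclease that degrades cytokine messengers, differed by -0.88 (SE 0.12), and Nfkbib, which encodes IkB-beta and was named after its values were seen, by -0.72 (SE 0.10). Irak3, a kinase-dead brake on Toll-like receptor signalling, was higher, with 8.27, 8.23 and 8.21 in KO-labelled samples against 6.66, 6.93 and 6.91 in WT (1.40, SE 0.08; limma, Benjamini-Hochberg adjusted p = 2.53e-05). Tank, an adaptor that restrains TRAF signalling, was higher by 0.86 (SE 0.08). Tollip and N4bp1, both described as negative regulators, did not pass, at -0.17 and 0.02, and Tollip was at -0.018 with exon-level gene values. The count of higher genes was 3 without KO-labelled replicate 1 or 3 or WT replicate 2 or 3, and with exon-level gene values 4 were lower and 2 higher.

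Known NF-kB target genes outside the 10 were more often lower than higher. Of 35 measured (37 listed), 13 were lower (all clusters, 14%), 5 higher (all clusters, 14.4%) and 17 did not pass, with a median of -0.28. The list shares Tnf, Il1a, Il1b, Traf1, Birc3 and some inhibitors with the lists above. Csf1, a growth factor of microglia, was at 6.63, 6.70 and 6.45 in KO-labelled samples, against 9.69, 9.97 and 8.52 in WT (-2.80, SE 0.35). Gadd45b, a stress-induced survival gene, differed by -2.05 (SE 0.20) and the adhesion molecule gene Icam1 by -1.51 (SE 0.14), both named after their values were seen. Vcam1, another adhesion molecule gene and the largest rise of the list, was at 11.93, 11.95 and 12.33 in KO-labelled samples, against 7.80, 7.90 and 7.87 in WT (4.21, SE 0.11). Cxcl2, a neutrophil-attracting chemokine gene named after its values were seen, was higher by 1.29 (SE 0.12). The chemokine gene Ccl3 (-0.16) and the early response gene Ier3 (-0.45, limma, Benjamini-Hochberg adjusted p = 0.136) did not pass. Ier3 was at -0.66 with an adjusted p of 0.0134 without WT replicate 3.

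Around Socs3, components of the STAT3 route also split. Of 26 measured members of the SOCS family and this route (28 listed), 8 were lower (all clusters, 14%), 6 higher (all clusters, 14.4%) and 12 did not pass. The median was -0.09, or -0.152 without WT replicate 3. Il6st, the shared receptor chain gp130, was at 9.41, 9.28 and 9.15 in KO-labelled samples, against 10.85, 11.03 and 10.82 in WT (-1.62, SE 0.09). Csf3r, the G-CSF receptor, was at 9.86, 9.87 and 9.87, against 11.17, 11.17 and 10.87 in WT (-1.20, SE 0.09). Both are receptors that SOCS3 is known to restrain. Stat3 itself, named after its values were seen, differed by -0.84 (SE 0.08). Lifr, which pairs with gp130 to bind leukaemia inhibitory factor, was higher by 1.15 (SE 0.14), and the anti-inflammatory cytokine gene Il10, an activator of STAT3, by 2.65 (SE 0.17). The kinase gene Jak1 (-0.14) and the phosphatase gene Ptpn6 (-0.02) did not pass, and Jak1 was at -0.081 after a second quantile normalization.

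**Figure D4:**
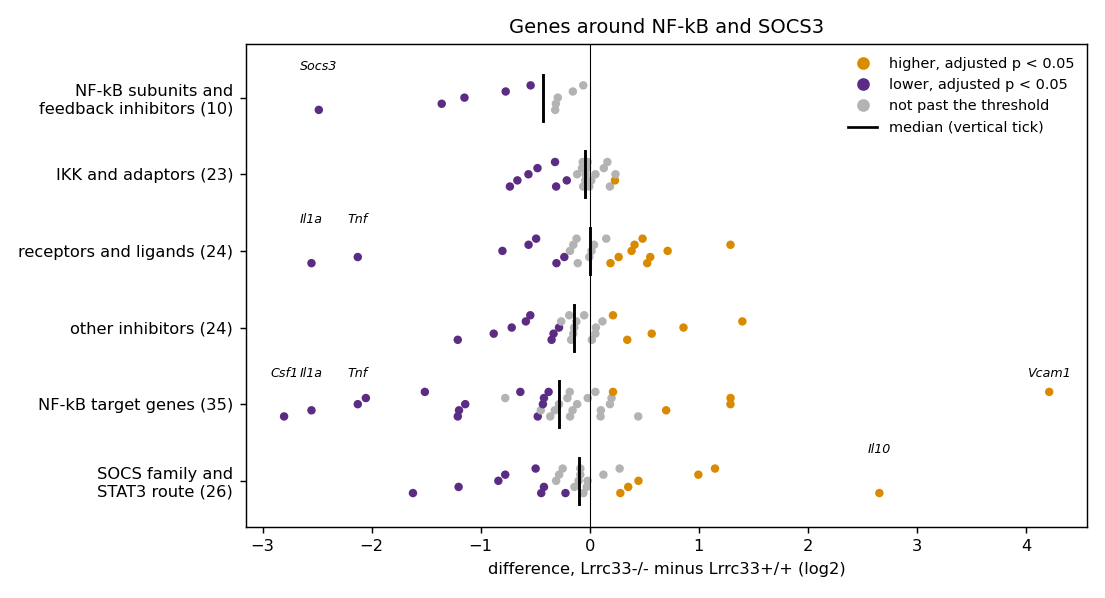
Differences (KO-labelled minus WT, log2, horizontal axis) of the 10 genes and of 5 lists of surrounding genes, 1 point per gene and the number of measured genes in brackets, with orange for higher, purple for lower and grey for genes not past the threshold. Vertical ticks are medians, at -0.43 for the 10 genes and between -0.28 and 0.0057 for the lists.

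The highest adjusted p of a gene named in these 5 lists as higher or lower was 0.0270, for Ikbkb (limma, Benjamini-Hochberg). Csf3r is also a neutrophil marker, and markers of other leukocytes were examined for that reason. The median difference over 10 neutrophil markers was -0.73. Of them 0 were higher by limma, also at an unadjusted p under 0.05. By adjusted p 1 was lower, Csf3r, and 2 were lower at that unadjusted p. The 9 markers other than Csf3r did not pass by adjusted p, and in each of them the groups overlapped. The sums were 1569 to 2863 in KO-labelled samples and 3559 to 5534 in WT. They include Csf3r itself, so they do not show a separation of the other 9. Of the 10 markers 4 stood below the median of all clusters. Of 7 measured monocyte markers 5 were lower, with sums of 357 to 483 in KO-labelled samples and 547 to 672 in WT, and 6 of the 7 were below that median. Of 8 lymphocyte and NK cell markers 0 were called by limma (2 were higher at an unadjusted p under 0.05), with sums of 578 to 707 and, in WT, 500.2 to 583, and 7 were below the median. Of 9 markers of neurons, astrocytes, oligodendrocytes and endothelium 1 was lower, with sums of 866 to 942 in KO-labelled samples and 959 to 1196 in WT. The part of these cells in the differences of the 10 genes was not tested.

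The genes whose profile over the 6 arrays lay closest to those of Socs3 and Nfkbia were found by the Euclidean distance between values centred on their mean, among 14846 other genes. Closest to Socs3 were Chst11, a chondroitin sulfotransferase gene (distance 0.257), Sall3, a zinc finger gene (0.277), and Arhgef40, a guanine nucleotide exchange factor gene (0.296), which differed by -2.54, -2.55 and -2.39. Closest to Nfkbia were Denn2b (0.107), Gramd1a (0.131) and the chemokine gene Ccl9 (0.165), which differed by -1.17, -1.08 and -1.25. With 2 groups of 3 arrays, such likeness mostly repeats the size of the group difference.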

How the data were processed

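The authors deposited log2 values made with RMA, per the submitters' processing notes, at a gene level (16755 transcript clusters) and an exon level (1236087 probesets) of the same 6 arrays. The notes also name oligo and limma for the exon level, without role or version. The genome build of the array files is not given in the sources used here. Every value column belongs to a labelled sample (0 left over). Symbols came from the platform annotation, updated through RefSeq (GRCm38.p6). At the gene level 14996 clusters had 1 symbol, 1019 several and 740 none, and at the exon level 321091, 7796 and 907200.

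Differences are KO-labelled minus WT, tested with limma 3.58.1 in R 4.3.3 (lmFit, eBayes, two-sided, no covariate) over all features, with Benjamini-Hochberg adjustment, a threshold of 0.05 and moderated standard errors. Nfkb1 and Relb were tested among the 22184 exon-level gene values (median of probesets with 1 symbol). diffSplice was run on genes with 3 or more probesets whose higher group mean reached the overall probeset median. Scripts were tested on simulated data. The labels call the samples biological replicates without naming separate animals, so p-values cover the spread between samples alone, which may be technical. Background correction and slide could not be varied, as scanner files were not used here.

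The 10 genes and all lists were chosen with earlier results of these data known. The text names the 10 genes, 3 check genes (Nrros, Xist, Eif2s3y), from each list of pathway genes up to 4 genes past the threshold with the largest difference and up to 2 not past it with the highest mean, and the 3 closest profiles to Socs3 and to Nfkbia.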

Additional observations from a re-analysis of the deposited data

How the results depend on the processing

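Of the 10 genes, the calls of Rel, Nfkbia, Nfkbie, Tnfaip3 and Socs3 and the signs of all 10 held under each alternative run, which were leaving out each array, the replicate block, a second quantile normalization, leaving out dim features (clusters below the 25th percentile in both groups, probesets below the median), eBayes with trend and robust settings, array weights, exon-level gene values and the mean over clusters. Across these alternatives 5 to 6 of the 10 genes were lower and 0 higher (limma). Leaving out 1 array each moved Nfkbiz between -0.51 and -0.115, and it passed without WT replicate 3. Nfkb1 (-0.31) passed with trend and robust settings (limma, Benjamini-Hochberg adjusted p = 0.0286). The count of probesets called lower, 36, ranged from 17 to 41 when 1 array was left out and was 20 with the replicate block, 55 without dim probesets and 65 with trend and robust settings. The labels state no pairing by replicate number. Correlations of same-numbered deviations were -0.029, -0.0071 and 0.039, and the best others were 0.041, 0.041 and -0.016. With 3 samples a group these cannot decide whether samples were paired. The replicate block left 5 of the 10 genes lower and also moved Ier3 past the threshold (limma, Benjamini-Hochberg adjusted p = 0.0161). Differences near 0 changed sign when 1 array was left out, where Tnfsf11 ran from -0.102 to 0.047, N4bp1 from -0.110 to 0.122, Tab2 from -0.019 to 0.054, Ptpn6 from -0.057 to 0.0014 and Nrros from -0.053 to 0.118. With exon-level gene values Tnfsf11 was at 0.289, N4bp1 at -0.078 and Ptpn6 at 0.028, and Ptpn6 was at 0.041 after the second normalization. The causes were not tested. RMA's floor and 3 arrays a group limit what dim genes can show.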
